A study of Mus musculus with 38 samples.

Results

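The interferon-inducible p200 genes Ifi203, Ifi204, Ifi205, Ifi206, Ifi209 and Aim2 of mouse chromosome 1, together with Samhd1 on chromosome 2, were followed through the array values of CD8 T cell clones. These 7 genes, of 21335 gene symbols named in the table, were taken by symbol, with older names accepted through gene numbers. They were selected on the activated and dormant values of these same arrays, several being known to be much lower after activation. Their activation differences are therefore given as a description without a test, and tests are kept for differences between clones. Of the 7, 6 have a probe set of their own. Ifi204 is listed only on a probe set that also names Ifi211, so the 2 genes cannot be told apart and that value is called Ifi211/Ifi204.

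The samples are cloned mouse CD8 T cells in 2 states, dormant and activated, the latter taken after 14 h on plates coated with the anti-CD3 antibody 145-2c11 (0.5 ug/ml), which engages the T cell receptor complex. The activated groups are otherwise the same clones as the dormant ones, all grown in RPMI medium with serum, and each line is 1 clone. In the design text sAg1 and sAg3 (phenotype CD8IL13+) are called CD8γ13 clones. The clones with the phenotype CD8IL13-, 8uvmo-2 and 8uvmo-3, are its Tc1 clones, and CD8bm1 is a conventional CD8 clone with alloreactivity. Dormant sAg1 and dormant sAg3 have 3 arrays each, and the other 8 groups, among them activated sAg1, activated sAg3, both states of 8uvmo-2 and 8uvmo-3 and both states of CD8bm1, have 4 each, for 18 dormant and 20 activated arrays. The labels give no strain, age or separate cultures, so p-values measure only the spread between arrays, which may be technical.

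The p200 proteins (also called PYHIN or HIN-200 proteins) share a DNA-binding HIN domain, usually beside a pyrin domain, and are encoded in a tandem cluster that responds to interferons. Aim2 senses cytosolic DNA and assembles an inflammasome, whereas several Ifi proteins act in the nucleus on transcription and growth. Samhd1 is a different kind of protein, a hydrolase that degrades deoxynucleoside triphosphates, and it keeps the nucleotide pool of resting cells low enough to hinder retroviral replication.

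Values are log2 probe set summaries, so a difference of 1 is a doubling. Levels are not compared between genes, because probe sets differ in their response. All arrays held between 8 and 10 of the 10 measured T cell identity genes at 7 or above and none of the 7 measured B cell markers. Of 6 measured NK cell markers, 2 or 3 were at 7 or above in every array. Of 6 erythroid and neutrophil markers, 1 was so in replicates 2, 3 and 4 of dormant 8uvmo-2, and none in any other array. Values under 7 are treated as near background (the median of all values was 6.91), although no background was measured. Array medians ran from 6.58 to 6.70 in dormant and from 7.01 to 7.09 in activated samples, and the median probe set was 0.35 higher after activation. Differences are therefore also given after each array was centred on its median. Dormant 8uvmo-2 held 2 kinds of array: a list of 19 cell cycle genes averaged 10.80 and 10.96 in replicates 1 and 3, against 8.96 and 8.52 in replicates 2 and 4.

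The start-site sequences show how closely this gene cluster is related. RefSeq promoter windows (GRCm38.p6, from 250 bases before to 50 after the start) were at hand for 12 p200 genes and for Samhd1. The interferon-stimulated response element was searched on both strands as GAAANNGAAA, a pattern present in 3.44% of 32851 promoter windows, and it occurred in 9 of the 12 p200 genes. In 7 of them the match read GAAATCGAAA, a string found in 16 of all windows (0.0487%). That string was read from these promoters, so its share is only a description. The 40 bases around this site are shown for the p200 genes that hold the 10 letters or differ from them by 1. They are on the gene's own strand, with the 10 letters in capitals.
Ifi206, chr1:173491334-173491373 (- strand): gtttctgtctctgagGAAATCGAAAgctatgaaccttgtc
Ifi214, chr1:173536012-173536051 (- strand): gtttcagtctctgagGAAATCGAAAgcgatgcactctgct
Ifi213, chr1:173599321-173599360 (- strand): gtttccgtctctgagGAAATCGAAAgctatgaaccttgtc
Ifi209, chr1:173630765-173630804 (+ strand): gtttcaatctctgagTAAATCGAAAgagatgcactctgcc
Ifi208, chr1:173673592-173673631 (+ strand): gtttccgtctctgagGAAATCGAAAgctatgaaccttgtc
Ifi207, chr1:173741826-173741865 (- strand): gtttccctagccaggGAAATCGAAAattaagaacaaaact
Mndal, chr1:173880199-173880238 (- strand): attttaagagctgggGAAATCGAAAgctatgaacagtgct
Ifi203, chr1:173942503-173942542 (- strand): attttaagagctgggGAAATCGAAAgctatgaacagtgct
Ifi211, chr1:173913059-173913098 (- strand): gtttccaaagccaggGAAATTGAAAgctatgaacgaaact
Ifi205, chr1:174031865-174031904 (- strand): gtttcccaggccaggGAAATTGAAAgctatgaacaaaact
For Ifi203 this is the second of its 2 windows; the first has no match. Counted from 1 at the 5′ end of GAAATCGAAA, Ifi209 differs by G1T, which takes it out of the pattern, and Ifi211 and Ifi205 both differ by C6T and still match it. The windows of Aim2 and Ifi202b held no match. These matches describe letters only and show no binding.

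Of the whole windows, those of the genes with the largest difference between states are printed, with matches to the response element or to the interferon-gamma-activated site (TTCNNNGAA, in 8.3% of windows) in capitals.
Ifi206, chr1:173491269-173491568 (- strand): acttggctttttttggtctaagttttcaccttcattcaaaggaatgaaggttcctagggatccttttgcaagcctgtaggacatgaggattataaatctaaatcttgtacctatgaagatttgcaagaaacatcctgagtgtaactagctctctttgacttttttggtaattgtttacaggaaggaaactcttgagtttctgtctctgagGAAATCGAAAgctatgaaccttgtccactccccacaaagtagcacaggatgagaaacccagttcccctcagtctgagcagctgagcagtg
Ifi209, chr1:173630609-173630908 (+ strand): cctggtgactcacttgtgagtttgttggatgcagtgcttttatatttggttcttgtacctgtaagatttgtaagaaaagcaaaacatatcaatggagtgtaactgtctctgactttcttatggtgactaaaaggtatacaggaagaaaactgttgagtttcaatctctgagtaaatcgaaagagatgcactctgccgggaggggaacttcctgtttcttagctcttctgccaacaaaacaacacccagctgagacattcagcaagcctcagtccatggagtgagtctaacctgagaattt
Samhd1, chr2:157135047-157135346 (- strand): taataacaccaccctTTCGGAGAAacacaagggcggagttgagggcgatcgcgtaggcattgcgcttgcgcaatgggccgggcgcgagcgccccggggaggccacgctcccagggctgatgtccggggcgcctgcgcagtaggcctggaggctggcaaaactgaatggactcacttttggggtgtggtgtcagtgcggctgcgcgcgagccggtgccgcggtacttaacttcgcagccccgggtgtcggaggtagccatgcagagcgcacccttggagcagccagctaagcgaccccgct
The response element of Ifi206 begins at position -40 from the start, and Ifi209 has neither pattern. Samhd1 has an interferon-gamma-activated site pattern that begins at position -235, in a window without the response element. A missing match says only that these letters are not in this window. Activator protein 1 and forkhead patterns were searched too: TGANTCA occurred in 7.81% and GTAAACA in 3.65% of windows, the first in Ifi209 and the second in Ifi206 but not in Samhd1.

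Ifi206, Ifi209 and Samhd1 had the 1st, 4th and 3rd largest mean difference downward of all 23410 named probe sets between the dormant and the activated state. The mean difference over the 5 clones was -3.39 ± 0.08 (SE) for Ifi206, -2.54 ± 0.083 for Ifi209 and -2.66 ± 0.08 for Samhd1, and -3.79, -2.94 and -3.07 after centring. Ifi203 (-1.73 ± 0.086), Ifi211/Ifi204 (-0.87 ± 0.12) and Aim2 (-0.80 ± 0.036) were also lower on average, and Ifi205 was higher (1.30 ± 0.14). The median of the 7 was -1.73. These values chose the genes and support nothing further. A mean at least 1 lower with an adjusted p under 0.05, which 4 of the 7 had, was reached by 1.95% of all probe sets. After centring 6 of the 7 were at least 1 lower, against 6.13%. In each of the 5 clones all activated arrays lay below all dormant ones for 4 of the 7, against 5.24% of all probe sets, and for 5 of the 7 after centring, against 17.9%. In RNA of whole cultures, fewer expressing cells and less RNA per cell cannot be told apart.

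**Figure D1:**
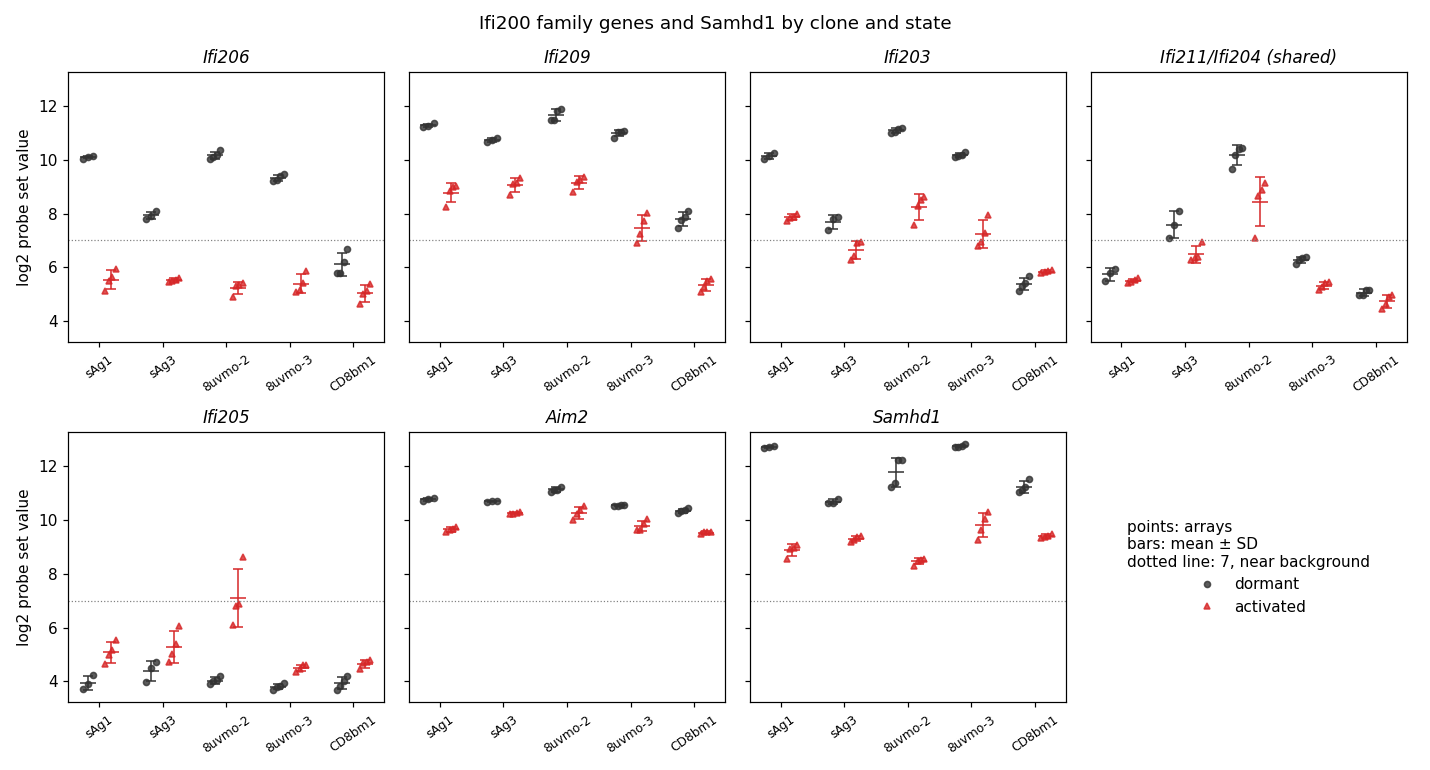
Log2 probe set values (y axis) of the 6 genes with their own probe set and of the shared Ifi211/Ifi204 probe set in each array, by clone (x axis), for dormant (circles) and activated (triangles) samples, with mean and SD of each group; the dotted line marks 7. Ifi206 drops from clone-specific dormant levels to 4.63 to 5.94 in all 20 activated arrays, Aim2 stays above 9 throughout, and Ifi205 is the gene with higher activated values.

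Ifi206 encodes a p200 protein with a pyrin and HIN domain. Its dormant arrays read 10.16, 10.05 and 10.11 in sAg1, 7.79, 8.08 and 7.92 in sAg3, 10.04, 10.36, 10.11 and 10.18 in 8uvmo-2, 9.26, 9.40, 9.47 and 9.22 in 8uvmo-3 and 6.70, 5.80, 5.79 and 6.18 in CD8bm1. Activated arrays read 5.63, 5.48, 5.94 and 5.13 in sAg1, 5.62, 5.47, 5.50 and 5.53 in sAg3, 5.41, 5.30, 4.91 and 5.34 in 8uvmo-2, 5.88, 5.17, 5.43 and 5.07 in 8uvmo-3 and 5.39, 5.11, 4.63 and 4.99 in CD8bm1. Dormant sAg1 and 8uvmo-2 were high, CD8bm1 was near background, and no activated array of any clone reached the lowest dormant array of the same clone. Since every activated array was near background, folds are lower bounds: at least 30.5-fold in 8uvmo-2, at least 23.6-fold in sAg1, at least 15.5-fold in 8uvmo-3 and at least 5.28-fold in sAg3. In CD8bm1 both states were below 7, and the difference was -1.09 ± 0.17.

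The clones differed in dormant Ifi206 by up to 4.06 between the highest and lowest clone mean (limma F test over 5 clones, adjusted p = 8.92e-21). Dormant 8uvmo-2 and sAg1, the first in the order, did not differ beyond their spread (0.07 ± 0.19, adjusted p = 0.849). From there each step down passed the test, sAg1 over 8uvmo-3 by 0.77 ± 0.19, 8uvmo-3 over sAg3 by 1.41 ± 0.19 and sAg3 over CD8bm1 by 1.81 ± 0.19. After activation the clone means spanned 0.52, and the limma F test gave an adjusted p of 0.0505. The activation difference spanned 3.85 between clones, but with all activated arrays near background that span follows from the dormant levels and is no measure of unequal response.

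Ifi209 stayed well measured in both states of most clones. Dormant arrays were at 11.23, 11.27 and 11.36 in sAg1, 10.66, 10.74 and 10.82 in sAg3, 11.50, 11.90, 11.48 and 11.81 in 8uvmo-2, 10.82, 11.05, 11.09 and 11.03 in 8uvmo-3 and 8.10, 7.75, 7.47 and 7.87 in CD8bm1. Activated arrays were at 9.03, 8.85, 8.98 and 8.25 in sAg1, 8.71, 9.32, 9.09 and 9.13 in sAg3, 9.16, 9.25, 8.80 and 9.36 in 8uvmo-2, 8.01, 7.25, 7.72 and 6.90 in 8uvmo-3 and 5.49, 5.58, 5.07 and 5.25 in CD8bm1. The states did not overlap in any clone, and CD8bm1 was low in both. The difference was largest in 8uvmo-3 (-3.53 ± 0.18, 11.5-fold) and smallest in sAg3 (-1.68 ± 0.19, 3.20-fold), with 5.69-fold in sAg1, 5.78-fold in 8uvmo-2 and at least 5.46-fold in CD8bm1.

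In dormant cells the 4 clones other than CD8bm1 formed a close series for Ifi209, with neighbours 0.26 to 0.39 apart and none of those steps past the test. The ends of that series, 8uvmo-2 (mean 11.67) and sAg3 (10.74), had arrays that did not overlap, and no test of that pair is given. CD8bm1 was 2.94 ± 0.19 below sAg3, the next clone (limma, adjusted p = 8.12e-15). After activation 8uvmo-2, sAg3 and sAg1 did not differ from their neighbours beyond the spread. 8uvmo-3 lay 1.31 ± 0.18 below sAg1 (adjusted p = 4.9e-07), and CD8bm1 lay 2.12 ± 0.18 below 8uvmo-3 (adjusted p = 4.65e-12).

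Ifi203, a nuclear p200 protein, had the widest span of dormant clone means among the 7. Dormant arrays were at 10.26, 10.13 and 10.04 in sAg1, 7.79, 7.88 and 7.39 in sAg3, 11.15, 11.20, 11.05 and 11 in 8uvmo-2, 10.18, 10.15, 10.29 and 10.10 in 8uvmo-3 and 5.67, 5.32, 5.12 and 5.43 in CD8bm1. Activated arrays were at 7.98, 7.71, 7.89 and 7.85 in sAg1, 6.90, 6.95, 6.29 and 6.43 in sAg3, 8.51, 8.62, 7.56 and 8.29 in 8uvmo-2, 7.95, 6.81, 7.29 and 6.93 in 8uvmo-3 and 5.84, 5.85, 5.90 and 5.77 in CD8bm1. In 4 clones the activated arrays lay below the dormant ones, and in CD8bm1, near background in both states, they lay above them (0.46 ± 0.19, 0.05 after centring). Folds were 7.65 in 8uvmo-3, 7.24 in 8uvmo-2, 4.88 in sAg1 and at least 2.06 in sAg3.

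Dormant Ifi203 spanned 5.72 between clones (limma F test, adjusted p = 7.57e-24). 8uvmo-3 and sAg1 did not differ beyond their spread (0.04 ± 0.20), while sAg1 exceeded sAg3 by 2.46 ± 0.21 and sAg3 exceeded CD8bm1 by 2.30 ± 0.20. The span of the activation difference was 3.39 (adjusted p = 9.59e-13), from -2.93 in 8uvmo-3 to 0.46 in CD8bm1, where both states were below 7. Among clones with dormant values above 7 it ran from -2.93 in 8uvmo-3 to -1.04 in sAg3, whose activated arrays were near background.

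The shared Ifi211/Ifi204 probe set stood out in 8uvmo-2. Dormant arrays read 9.65, 10.44, 10.18 and 10.41 there, 8.10, 7.09 and 7.58 in sAg3, 6.33, 6.27, 6.40 and 6.12 in 8uvmo-3, 5.77, 5.49 and 5.95 in sAg1 and 5.15, 4.95, 4.96 and 5.17 in CD8bm1. Activated arrays read 9.15, 8.87, 7.10 and 8.65 in 8uvmo-2, 6.95, 6.27, 6.39 and 6.33 in sAg3, 5.25, 5.41, 5.45 and 5.16 in 8uvmo-3, 5.43, 5.47, 5.59 and 5.54 in sAg1 and 4.43, 4.90, 4.98 and 4.62 in CD8bm1. 8uvmo-2 held the highest value in both states, and sAg1, 8uvmo-3 and CD8bm1 were near background throughout. The states overlapped in sAg1 and CD8bm1 and not in the other 3 clones. Dormant 8uvmo-2 was 2.58 ± 0.27 above dormant sAg3 (limma, adjusted p = 1.09e-09), and activated 8uvmo-2 was 1.96 ± 0.25 above activated sAg3 (adjusted p = 7.89e-08). The activation difference spanned 1.5 between clones (adjusted p = 0.0043), a call lost after quantile normalization (1.02, adjusted p = 0.117).

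Ifi205 ran against the others. Its dormant arrays lay between 3.68 and 4.71 in all clones, and clone differences there did not pass the test (limma F test, adjusted p = 0.527). Activated arrays read 8.62, 6.86, 6.79 and 6.11 in 8uvmo-2, 6.07, 5.37, 5.01 and 4.70 in sAg3, 5.17, 5.53, 4.63 and 4.96 in sAg1, 4.72, 4.78, 4.68 and 4.44 in CD8bm1 and 4.59, 4.36, 4.61 and 4.45 in 8uvmo-3. Only replicate 1 of activated 8uvmo-2 exceeded 7, and the activated arrays lay above the dormant ones in all clones except sAg3, where 1 array overlapped. Activated 8uvmo-2 was 1.81 ± 0.29 above activated sAg3 (limma, adjusted p = 4.87e-06), and no lower pair of neighbours differed beyond its spread. The activation difference was 3.07 ± 0.29 in 8uvmo-2 and 0.70 to 1.13 in the other clones, and its span of 2.37 passed the test (adjusted p = 3.01e-05). After centring the difference was 2.67 in 8uvmo-2, 0.72 in sAg1, 0.48 in sAg3 and 0.32 in both 8uvmo-3 and CD8bm1. Activated arrays lay above dormant ones in all 5 clones for 38.3% of all probe sets. Outside 8uvmo-2 both states were near background, so no fold is given. In 8uvmo-2 the means differed 8.38-fold. Its dormant arrays and all its activated arrays but replicate 1 were near background, so this is no exact size.

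Macrophages and dendritic cells also express p200 genes, and their markers were read in every group. Of 21 measured markers, 2 to 4 were at 7 or above in the arrays of activated 8uvmo-2 (Cd68, Itgax and Ctss by group mean), with a summed linear level of 2730 to 3200. The same sum was 3910 to 6760 in dormant 8uvmo-2 and 5860 to 6960 in activated sAg3, where Ifi205 was lower. Within activated sAg3, replicate 1 had 7 markers at 7 or above and a marker mean of 7.10, against 3 markers and 6.60 to 6.61 in the other arrays. The same array had the group's highest Ifi205 (6.07, against 4.70 to 5.37) and Ifi211/Ifi204 (6.95, against 6.27 to 6.39). In dormant sAg1 Lyz2 had a mean of 9.26, against 4.95 to 6.34 in all other groups, and the marker sum was 2250 to 3550. In sAg3 the sum was 5590 to 5870 when dormant, in CD8bm1 it was 3300 to 3930 dormant and 2580 to 2870 activated, in 8uvmo-3 2250 to 2400 and 1570 to 1830, and in activated sAg1 1930 to 2370. Their part in the member values was not tested.

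Aim2, the cytosolic DNA sensor, differed by less than 1 between clones in both states. Dormant arrays ranged from 10.26 to 10.44 in CD8bm1, from 10.53 to 10.58 in 8uvmo-3, from 10.69 to 10.73 in sAg3, from 10.72 to 10.83 in sAg1 and from 11.06 to 11.25 in 8uvmo-2. Activated arrays ranged from 9.47 to 9.56 in CD8bm1, from 9.56 to 9.76 in sAg1, from 9.63 to 10.04 in 8uvmo-3, from 9.99 to 10.53 in 8uvmo-2 and from 10.23 to 10.29 in sAg3. The states did not overlap in any clone. Differences ran from -0.45 ± 0.085 in sAg3 to -1.12 ± 0.085 in sAg1, which are 1.37-fold and 2.18-fold. Clone means spanned 0.79 dormant and 0.74 activated, and the activation difference spanned 0.67. All 3 spans had an adjusted p under 0.05 (1.49e-09, 4.61e-11 and 0.000495, limma F test) and stayed below the minimum difference of 1 that a call required.

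Samhd1 was above 8 in every array of both states. Its dormant arrays read 12.76, 12.71 and 12.68 in sAg1, 10.65, 10.79 and 10.62 in sAg3, 11.39, 12.25, 11.24 and 12.25 in 8uvmo-2, 12.73, 12.74, 12.82 and 12.77 in 8uvmo-3 and 11.53, 11.11, 11.25 and 11.05 in CD8bm1. Activated arrays read 8.94, 8.95, 9.06 and 8.55 in sAg1, 9.25, 9.42, 9.20 and 9.37 in sAg3, 8.56, 8.30, 8.49 and 8.51 in 8uvmo-2, 10.30, 9.62, 10.05 and 9.27 in 8uvmo-3 and 9.34, 9.40, 9.49 and 9.38 in CD8bm1. No activated array reached any dormant array of any clone. The largest fold was 14.3 in sAg1, ahead of 8uvmo-2 with 9.97 and 8uvmo-3 with 7.75, and the smallest were 3.56 in CD8bm1 and 2.60 in sAg3.

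Samhd1 had its own order of clones, and the p200 members shared no single order either. Dormant 8uvmo-3 and sAg1 were highest and did not differ beyond their spread (0.05 ± 0.19). 8uvmo-2 followed 0.93 ± 0.19 lower (limma, adjusted p = 0.000109), then CD8bm1 0.55 ± 0.17 lower (adjusted p = 0.0108) and sAg3 a further 0.55 ± 0.19 lower (adjusted p = 0.0192). After activation sAg1, near the top when dormant, was above only 8uvmo-2, by 0.41 ± 0.17 (adjusted p = 0.0866). The clone span was 2.08 dormant and 1.34 activated (limma F test, adjusted p = 2.16e-12 and 2.56e-07), and the activation difference spanned 2.47 (adjusted p = 1.22e-09).

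In dormant 8uvmo-2 and CD8bm1, Samhd1 was lower in the arrays with higher cell cycle transcripts. In 8uvmo-2 it read 11.39 and 11.24 where the mean of the 19 cell cycle genes was 10.80 and 10.96, and 12.25 and 12.25 where that mean was 8.96 and 8.52. In CD8bm1 the 4 arrays read 11.53, 11.25, 11.11 and 11.05 at cell cycle means of 9.66, 9.81, 10.47 and 11.01, so the order was fully opposed. The 4 arrays of 8uvmo-3, with cell cycle means of 9.08 to 9.71, had Samhd1 values within 0.09 of each other. In sAg1 the order was opposed too, at cell cycle means of 7.92, 7.97 and 8.40. In sAg3 it was not: replicate 1 had the highest cell cycle mean (9.28, against 8.51 and 8.54) but not the lowest Samhd1. Over the 18 dormant arrays the deviations from clone means had a Pearson r of -0.93, and -0.76 over the 14 arrays without 8uvmo-2. Arrays of 1 clone share that clone and each array supplies both values, so this is a description. The same r was -0.53 for Ifi209 (-0.16 without 8uvmo-2), -0.51 for Aim2 (-0.42) and -0.35 for Ifi206 (-0.34). It was -0.18 for Ifi211/Ifi204 (0.48), 0.01 for Ifi203 (-0.03) and 0.25 for Ifi205 (0.23), so the members did not share it. Among other p200 genes r was -0.63 for Ifi213 (-0.48), -0.61 for Ifi207 (-0.33) and -0.51 for Ifi214 (-0.18). For Ifi202b it was -0.33 (-0.37) and for Ifi208 -0.14 (0.02). In the 20 activated arrays it was 0.42 for Samhd1. Without regard to clone r was -0.44 for dormant Samhd1. The activation difference of Samhd1 in 8uvmo-2 was -2.85 from dormant replicates 1 and 3 and -3.78 from replicates 2 and 4. The part of the cell cycle in the Samhd1 values was not tested.

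**Figure D2:**
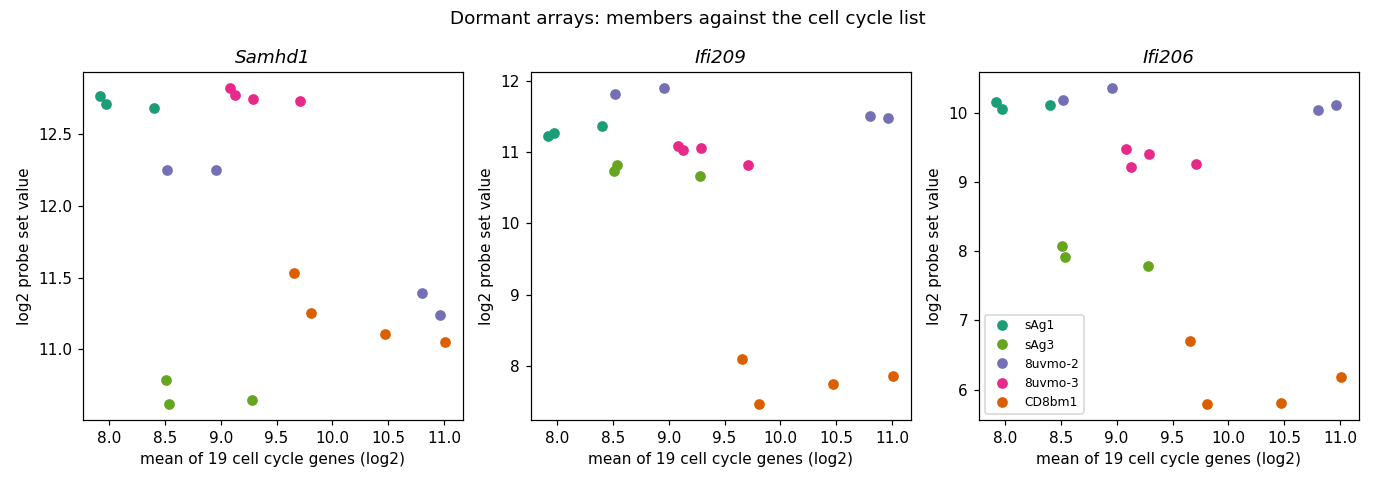
Log2 values of Samhd1, Ifi209 and Ifi206 (y axes) against the mean log2 value of the 19 measured cell cycle genes (x axis) in the 18 dormant arrays, 1 point per array, coloured by clone. Within 8uvmo-2 and CD8bm1 the Samhd1 points descend to the right, while Ifi206 separates by clone with little spread inside clones other than CD8bm1.

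Differences between clones were frequent among the members. In dormant cells 5 of 7 members were called as differing between clones (adjusted p under 0.05 and a span of at least 1), against 20.7% of all probe sets. In activated cells 5 of 7 were called, against 13.2%, and for the activation difference 6 of 7, against 14.4%. Among those 6, Ifi206 was near background in every activated clone. Near-background values also entered the spans of Ifi203, Ifi205 and Ifi211/Ifi204. Aim2 was uncalled in each, Ifi205 in dormant and Ifi206 in activated cells. Of 28 pairs of neighbouring clones in the order of levels, 15 differed when dormant (17.8% over all probe sets) and 10 when activated (14%). CD8bm1 had the lowest mean of 5 of the 7 members in each state, and 8uvmo-2 had the highest mean of 5 of the 7 in each state. How often these clones are lowest or highest over all probe sets was not counted, so this only describes the members. All these comparisons share arrays with the activation difference, whose values chose the members, so the counts are no independent support.

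Between the phenotypes, IL13+ clones sAg1 and sAg3 against IL13-negative 8uvmo-2 and 8uvmo-3, few members differed. A call here also required the clone means of both sides to lie apart. Of 7 members, 1 was called in the dormant state, lower (3.35% of all probe sets, 2.33% lower and 1.02% higher). None was called in the activated state (1.75%), and 1, higher, for the difference in activation (1.95%, 1.39% higher and 0.56% lower). Without the minimum difference and the condition on clones, 4, 4 and 5 members had an adjusted p under 0.05 in limma. The share of all probe sets at that looser threshold was not counted, so these counts only describe the members. Dormant Ifi203 was lower in IL13+ clones by -1.73 ± 0.14 (means of 8.92 and 10.64, adjusted p = 2.35e-12). That call rests on a gap of 10.14 in sAg1 against 10.18 in 8uvmo-3 and was lost after centring, without sAg3 (-0.50), and with clone means as replicates (adjusted p = 0.882). Leaving out replicate 3 of dormant sAg1 or replicate 3 of dormant 8uvmo-3 also ended it. The activation difference of Ifi203 was smaller in size in IL13+ clones (-1.66) than in IL13-negative clones (-2.90), a gap of 1.23 ± 0.19 (adjusted p = 8.58e-06). It fell to 0.61 without sAg3 (adjusted p = 0.0731), and with clone means as replicates the adjusted p was 0.987. Activated sAg3 was near background for Ifi203, so the gap is no exact size.

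The remaining members had adjusted p-values under 0.05 for some phenotype differences with the clones of both sides mixed. Dormant Ifi211/Ifi204 differed by -1.56 ± 0.19, Ifi206 by -0.74 ± 0.13 and Samhd1 by -0.57 ± 0.13 (adjusted p = 3e-08, 2.04e-05 and 0.000578). These directions turned when 1 clone was left out, to 0.38 for Ifi211/Ifi204 without 8uvmo-2, and to 0.35 for Ifi206 and 0.44 for Samhd1 without sAg3. Activated Ifi209 was 0.61 ± 0.13 higher in IL13+ clones (adjusted p = 0.000194), and -0.22 without 8uvmo-3. Its activation difference was smaller in size there by 0.94 ± 0.19 (adjusted p = 0.000256), with the 2 sides apart and the minimum of 1 not reached. It was called at 1.03 without dormant 8uvmo-2 replicates 1 and 3 (adjusted p = 0.000126). The dormant Samhd1 value moved to -0.81 without dormant 8uvmo-2 replicates 1 and 3, and to -0.34 without replicates 2 and 4. Aim2 differed by -0.10 ± 0.06 dormant and -0.08 ± 0.056 activated, both past no threshold. In dormant IL13+ clones the cell cycle genes Ccna2 and Ccnb2 differed by -2.42 ± 0.38 and -2.03 ± 0.32 (limma, adjusted p = 2.26e-06 and 2.88e-06). Of the 19 cell cycle genes, 10 were lower there, against 2.33% of all probe sets. Their part in the phenotype values was not tested.

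**Figure D3:**
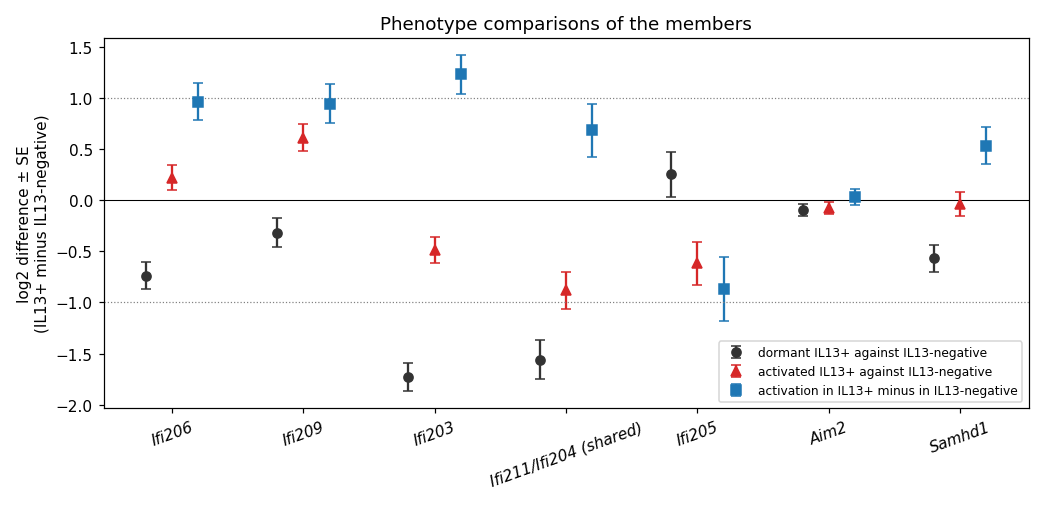
IL13+ minus IL13-negative difference in log2 value with its SE (y axis) for the 7 members (x axis), in dormant cells (circles), in activated cells (triangles) and for the activation difference (squares); dotted lines mark the minimum difference of 1. The Ifi203 dormant value of -1.73 and its activation difference of 1.23 are the 2 called points.

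Most other measured genes of the cluster were lower after activation too. Of 8 further p200 symbols, 5 had a probe set of their own (Ifi202b, Ifi207, Ifi208, Ifi213 and Ifi214), and Ifi211 is measured on the shared one. No array value of Mnda or Mndal is used here. In the activation comparison over the mean of 5 clones 4 of the 5 fell and none rose, on deposited and on centred values (limma, against 1.95% lower and 4.68% higher of all probe sets, and 6.13% and 1.19% after centring). Ifi214 fell by 2.12 ± 0.11 (adjusted p = 1.06e-18), and the differences were -1.42 ± 0.09 for Ifi213 (1.76e-16), -1.41 ± 0.087 for Ifi208 (9.63e-17) and -1.18 ± 0.082 for Ifi207 (2.37e-15). By clone they were uneven. In CD8bm1, where all 4 were near background, Ifi207 and Ifi208 differed by 0.01 each and Ifi213 by 0.58, whereas in 8uvmo-2 Ifi207 differed by -3.44 and Ifi208 by -3.98. Ifi208 in 8uvmo-3 differed by -0.24 with overlapping arrays. Ifi202b stayed between 3.46 and 4.07 in all group means. Earlier results of these data were known when the list was written, so its direction is not independent evidence.

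Each of these 4 had its own order of clones. Dormant Ifi214 was highest in sAg3 at 9.62, 9.55 and 9.99, followed by 8uvmo-3 at 8.71, 8.74, 8.54 and 8.79, and was at 4.62 to 6.05 in CD8bm1. Dormant Ifi208 was at 9.25, 9.66, 9.21 and 9.27 in 8uvmo-2, at 7.21, 6.97 and 6.93 in sAg1 and below 7 in the other clones. Dormant Ifi207 was at 9.44, 10.53, 9.85 and 10.07 in 8uvmo-2, at 8.20, 8.20 and 8.28 in sAg3 and at 4.81 to 5.16 in CD8bm1. Dormant Ifi213 was highest in sAg1 (8.44, 8.09 and 8.29) and 8uvmo-2 (8.02, 8.49, 7.91 and 8.39). Ifi208 and Ifi213 share 40 identical bases around the response element, and any part of these letters in the levels was not tested. CD8bm1 had the lowest mean of 9 of the 11 p200 probe sets when dormant and of 8 when activated, a count not made over all probe sets. Activated Ifi214 was higher in IL13+ clones by 1.06 ± 0.17 (limma, adjusted p = 4.23e-06), the 1 phenotype call among the 5. The activated clone means were 7.31 in sAg3, 5.71 in sAg1, 5.59 in 8uvmo-2 and 5.30 in 8uvmo-3, so sAg3 alone was above 7, and sAg1 and 8uvmo-2 differed by 0.12 ± 0.24 (adjusted p = 0.831). Paralogous transcripts may share probes, and this was not tested.

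**Figure D4:**
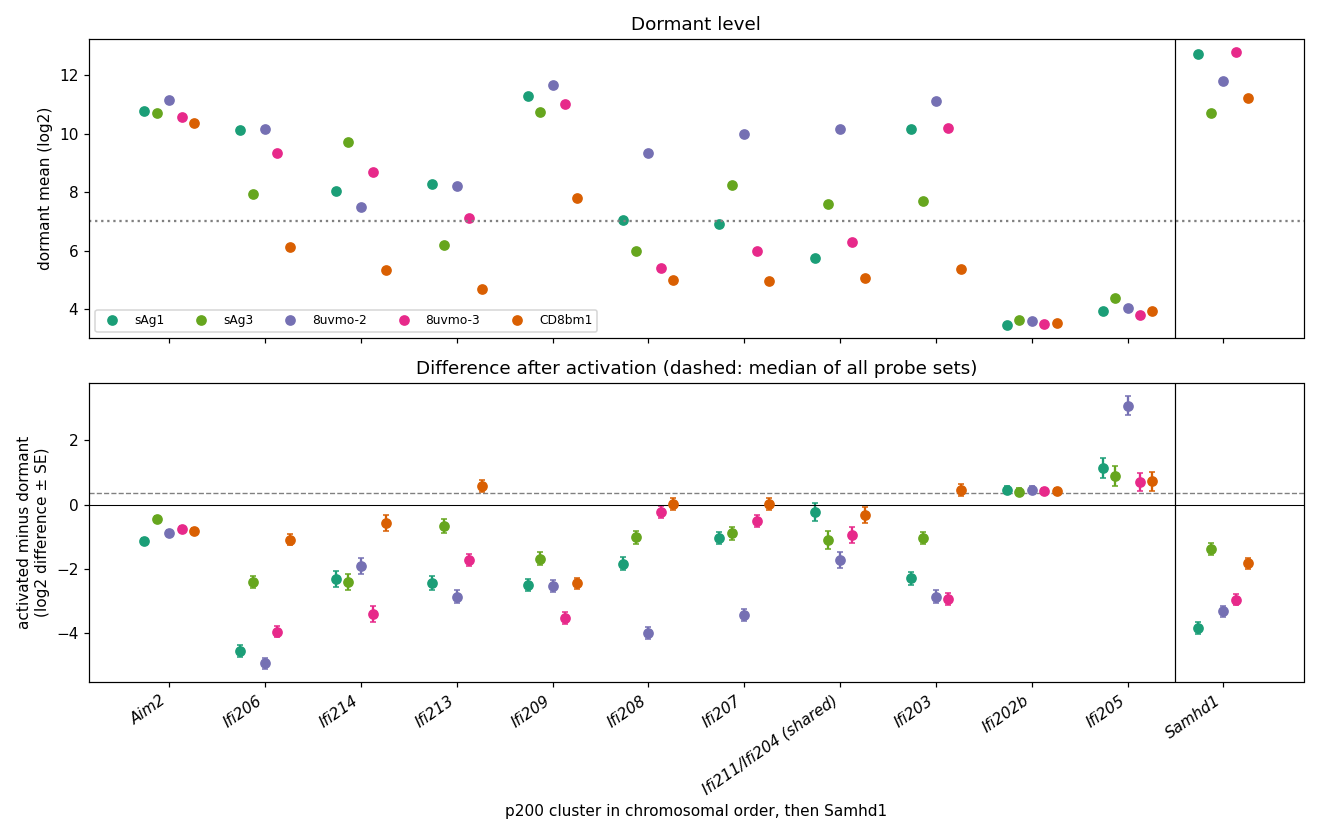
Dormant mean log2 value (top) and activated minus dormant log2 difference with SE (bottom) for the 11 p200 probe sets in chromosomal order and for Samhd1 (x axis), by clone; the dashed line is the median difference of all probe sets, 0.35. Ifi208, Ifi207 and Ifi211/Ifi204 are highest in 8uvmo-2, CD8bm1 lies at the bottom of most columns, and the negative differences end at Ifi202b and Ifi205.

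Along the chromosome (order from GRCm38.p6, Aim2 first and Ifi205 last), the probe sets with a lower mean over the 5 clones after activation ran from Aim2 to Ifi203. In CD8bm1 alone, Ifi213 (0.58) and Ifi203 (0.46) were higher and Ifi207 and Ifi208 (0.01 each) were level. The 3 measured genes before the cluster, Olfr418, Ackr1 and Cadm3, had differences of 0.46, 0.54 and 0.40, and the 3 after it, Olfr433, Olfr432 and Olfr430, of 0.28, 0.25 and 0.48, close to the median of 0.35. After centring these ran from -0.16 to 0.14. Their dormant means were 4.04 to 6.05 and their activated means 4.5 to 6.45. All were thus near background in both states, where a fall could hardly show. Around Samhd1 the neighbours were mixed: Rbl1, which encodes the pocket protein p107, was lower by -0.96 ± 0.14, Soga1 was higher by 0.99 ± 0.035, and Dsn1 (-0.19 ± 0.15) did not pass the test (limma, adjusted p = 0.218).

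Genes of DNA sensing and inflammasomes mostly stayed under the minimum difference of 1, as Aim2 did on deposited values (-0.80). Of 23 measured, 2 fell and 2 rose on deposited values, against 1.95% and 4.68% of all probe sets, with a median of -0.05 against 0.35 for all probe sets. After centring, where Aim2 was at -1.21, 2 fell and none rose, against 6.13% and 1.19%. The centred median was -0.46, against -0.05 for all probe sets. Il18, a cytokine matured by inflammasomes, fell by 1.87 ± 0.092 (limma, adjusted p = 1.96e-19), and Pycard, the adaptor ASC, fell by 1.23 ± 0.08 (3.65e-16). Nlrp3, another inflammasome sensor, rose by 1.26 ± 0.064 (4.86e-19) and Casp4 by 1.09 ± 0.048 (9.26e-21), but neither passed the minimum after centring. Between phenotypes 3 of the 23 were lower in dormant IL13+ clones and none higher, against 2.33% and 1.02% of all probe sets. These were Pycard (-1.47), Casp4 (-1.17) and Il18 (-1.10). In activated IL13+ clones 1 was lower (Casp4 -1.36), against 1.09%.

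Genes of deoxynucleotide metabolism, the pathway in which Samhd1 acts, were also read. Their sizes are not set against Samhd1, which was chosen with its fall known. Of 22 measured, 1 fell and none rose, against 1.95% and 4.68% of all probe sets, with a median of -0.25 against 0.35. Dguok, the mitochondrial deoxyguanosine kinase, fell by 1.67 ± 0.047 (limma, adjusted p = 8.77e-26). After centring 4 fell, with Tk2 (-1.27), Dck (-1.04) and Rrm1 (-1.03) added, against 6.13% of all probe sets. For the difference in activation between phenotypes 4 of the 22 were higher in IL13+ clones, led by Rrm2, a ribonucleotide reductase subunit (1.59 ± 0.54, adjusted p = 0.0325), and Tk1 (1.27 ± 0.35, adjusted p = 0.00818). Of the 19 cell cycle genes 8 were higher in that same comparison (1.39% of all probe sets), and their part was not tested.

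Other interferon-stimulated genes were lower in part. Of 33 measured, 5 fell and 1 rose on deposited values, and 8 fell and 1 rose after centring, with medians of -0.15 and -0.55 against 0.35 and -0.05 for all probe sets. Of all probe sets 1.95% fell and 4.68% rose, and 6.13% and 1.19% after centring. Trim30a, a TRIM protein, fell by 1.52 ± 0.071 (limma, adjusted p = 5.56e-20), and the differences were -1.35 ± 0.075 for the transcription factor Irf1 (6.49e-18) and -1.33 ± 0.12 for the antiviral GTPase Mx1 (1.25e-12). The chemokine Cxcl10 rose by 1.47 ± 0.087 (2.93e-17). Among 9 interferon ligands and receptors, Ifng rose by 3.00 ± 0.036 (1.85e-36), and Ifngr1, a subunit of its receptor, fell by 1.70 ± 0.056 (3.71e-24). Ifng group means were 8.96 to 11.98 dormant and 13.59 to 14.17 activated, so in activated arrays the ligand was high and Ifi206 was near background. In dormant IL13+ clones 3 of the 33 interferon-stimulated genes were lower than in IL13-negative ones and none higher, against 2.33% and 1.02% of all probe sets. The 3 were Ifi27l2a (-1.78), Gbp3 (-1.43) and Ifit2 (-1.20).

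Members resembled each other to different degrees among the 18 dormant arrays, which share 5 clones. Pearson r was 0.98 for Ifi203 with Ifi206, 0.94 for Ifi206 with Ifi209, 0.93 for Ifi203 with Ifi209 and 0.89 for Ifi211/Ifi204 with Aim2. For Samhd1 it was 0.64 with Ifi206, 0.63 with Ifi203, 0.45 with Ifi209, 0.11 with Aim2, -0.13 with Ifi211/Ifi204 and -0.57 with Ifi205. In the 20 activated arrays Ifi211/Ifi204 and Ifi205 had an r of 0.87, both highest in 8uvmo-2, and Ifi203 with Ifi206 had 0.40. Over all 38 arrays the probe sets most like the standardized mean of the members were Pan3 (r = 0.936), Rcbtb2 (0.934) and Tmem71 (0.932), with Wtap, Rpl21 on 2 probe sets, Fbxl17 and Slc2a9 next. Slc9a9 (0.976) and Nfatc3 (0.972) were most like Ifi206, Ppp3cc (0.936) and Hcst (0.934) most like Ifi209, and Tnfaip8l2 (0.951) and Fryl (0.927) most like Ifi203. Tmem59 (0.969) and Prxl2c (0.968) were most like Samhd1, Mzt1 (0.945) and Cd3g (0.942) most like Aim2, Meiob (0.895) and Stc2 (0.891) most like Ifi211/Ifi204, and Mmp13 (0.932) and Il1rn (0.915) most like Ifi205. Among dormant arrays alone, Aim2 was most like Spef2 (0.962) and the p200 gene Ifi208 (0.961), Ifi209 like Lilrb4a (0.992) and Tet2 (0.986), and Samhd1 like Kdm7a (0.968) and Clint1 (0.966). These likenesses describe shared arrays and clones.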

How the data were processed

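RNA of 38 samples, 1 array each, was labelled from 100 ng with the Affymetrix WT Plus kit, per the labels' protocols. The authors deposited log2 probe set values; the submitters' processing notes name Partek and RMA but no settings. No background or detection call was used here, and the number of arrays limits precision. Gene names came from the platform annotation (23410 of 35556 rows named). Each named probe set was fitted with limma 3.58.1 (R 4.3.3) as a model of group means with a shared spread and a mean-variance trend, and p-values were adjusted by Benjamini-Hochberg over all 23410. A call needed an adjusted p under 0.05 and a log2 difference of at least 1. All tests were two-sided, and the fit was tested on simulated data. The 7 members and the gene lists were chosen with earlier results of these data known. The text names all members, every measured p200 gene, up to 4 genes per other list by size of difference, 3 genes beside each locus and the most alike probe sets. Alternatives covered scaling, filtering, variance model, weights, thresholds, arrays, clones and a replicate block. Same-numbered dormant and activated arrays were not paired: over 18 pairs the correlation of their deviations ran from -0.236 to 0.268, with 7 over 0.1, among them all 4 of 8uvmo-2 (0.113 to 0.237).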

Additional observations from a re-analysis of the deposited data

Results flagged for a closer look

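In activated CD8bm1 replicate 1 of Aim2, at 9.47, lay apart from the other 3 arrays, the nearest at 9.55: the gap was 0.889 of the group's range, above Dixon's 95% critical value. It was 1 of 56 groups of 4 arrays tested, and chance gives about 5%.

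The activation difference of Ifi203 differed between IL13+ and IL13-negative clones by 1.23. All 4 activated sAg3 arrays and 2 activated 8uvmo-3 arrays were below 7, so this is no exact size. The activation difference also differed between clones, with spans from the lowest to the highest clone of 2.47 for Samhd1 and 1.85 for Ifi209. For the other genes near-background values enter the span, which is then no exact size. It was 3.85 for Ifi206 (all activated arrays) and 3.39 for Ifi203 (both states of CD8bm1 and 2 activated arrays of 8uvmo-3). For Ifi205 it was 2.37 (both states of most clones), and for Ifi211/Ifi204 1.5 (both states of 3 clones). In Ifi209 activated CD8bm1 was also below 7.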

How the results depend on the processing

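The counts of members that differed between clones (5 dormant, 5 activated, 6 for activation) were within 1.5 times under every alternative run and with each array left out. With each array left out, dormant phenotype calls ranged from 0 to 1, activated ones from 0 to 0 and calls for the difference in activation from 1 to 2, the higher count without activated sAg1 replicate 4 or activated 8uvmo-3 replicate 1. Neighbour pairs ranged from 22 to 27 around 25. Dormant phenotype calls were 0 after centring and with clone means as replicates, 2 without the condition on clones, 3 without sAg1, 2 without 8uvmo-2 and 3 without 8uvmo-3. Activated phenotype calls were 1 without sAg1, 1 without 8uvmo-2 and 2 without 8uvmo-3. Calls for the difference in activation were 2 with the replicate block, without dormant 8uvmo-2 replicates 1 and 3, with no minimum difference and without 8uvmo-2, 4 without sAg1 and without 8uvmo-3, and 0 with clone means. In the block fit the added gene was Ifi209 (1.01, adjusted p = 0.000108), and the block moved no other count by over 1.5 times.

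Phenotype differences that changed sign were all uncalled. Without sAg1 activated Aim2 was 0.22 and Samhd1 0.17. Without sAg3 dormant Ifi206 was 0.35 and Samhd1 0.44, activated Ifi203 was 0.11, and the difference in activation was -0.12 for Ifi206, -0.31 for Aim2 and -0.71 for Samhd1. Without 8uvmo-2 the dormant values were 0.38 for Ifi211/Ifi204, 0.02 for Ifi209 and 0.19 for Aim2, the activated ones 0.68 for Ifi211/Ifi204, 0.68 for Ifi205 and 0.17 for Aim2, and the difference in activation 0.31 for Ifi205 and -0.03 for Aim2. Without 8uvmo-3 activated Ifi209 was -0.22 and Samhd1 0.63. With each array left out, activated Samhd1 ran from -0.14 to 0.04 and the Aim2 difference in activation from -0.02 to 0.07. The cause was not tested. Each phenotype has 2 clones, so these values hold for the clones measured. Values under 7 may understate differences, and probe set summaries do not separate transcripts.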
